A study of Mus musculus with 4 samples.

Results

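Glucocorticoid-induced genes were followed across every cell type of the posterior hindbrain. The set held 31 genes of the 32285 in the count tables, all of them known targets of the glucocorticoid receptor. Each was measured as unique molecular identifiers (UMIs, counted RNA molecules) summed over the nuclei of a cell type in each library, and levels are given per 1000000 UMIs of that type (CPM). The list was drawn up with the change in CPM between AgRP-Gq;POMC-Gi and control in view, so its genes count as chosen by that measure, and their differences between the groups are a description of these libraries.

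Single nuclei came from a piece of posterior hindbrain that included the area postrema and nucleus of the solitary tract, of adult C57BL/6 mice aged 12 to 20 weeks, of both sexes. The AgRP-Gq;POMC-Gi group carried AgRP-IRES-Cre, which turned on the activating receptor hM3DGq in AgRP neurons, and POMC-Dre, which turned on the inhibitory receptor hM4DGi in POMC neurons. The control group, called wild type in the sample labels, carried both floxed or roxed receptor alleles without either recombinase according to the study's methods. Both groups received clozapine N-oxide (CNO, the ligand of both receptors) at 3 mg per kg and were kept without food for 1 h before tissue was taken. Each group had 2 libraries from 2 mice, and the methods state that samples of a condition were pooled. Whether each library is 1 mouse is not given, so the tests measure the spread between libraries. The AgRP-Gq;POMC-Gi libraries differed in Xist, as given further on, by more than aliquots of 1 pool would.

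Corticosterone, the glucocorticoid of mice, enters cells and binds the glucocorticoid receptor, which then moves to the nucleus and binds DNA at palindromic response elements near its target genes. Targets shared by many tissues include co-chaperones and inhibitors that dampen the response, transcription factors that pass it on, kinases, metabolic enzymes and metal-binding proteins. The receptor is made by neurons, glia and vascular cells of the brain.

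The deposited annotation kept 39461 nuclei, from 9723 to 10051 per library, with 48904976 to 53089402 UMIs per library. Of 46 marker genes chosen for 13 cell types, 42 were highest in the type they mark, and the exceptions were Cspg4 in OPC (oligodendrocyte precursors) and Crym, Col23a1 and Vim in tanycyte-like cells. Neurons made up 25.4% and 27.2% of control nuclei and 38.0% and 36.5% of AgRP-Gq;POMC-Gi nuclei. From 19 to 36 kept barcodes were shared between any pair of libraries. Choroid plexus markers were higher in replicate 2 of both groups than in replicate 1 of both in every cell type, at 3350 and 2100 against 6.43 and 24.9 CPM in oligodendrocytes and 3520 and 1520 against 901 and 112 in tanycyte-like cells. Xist, the transcript of the inactive X chromosome, was 16.2 CPM in neurons of AgRP-Gq;POMC-Gi replicate 2 and 319 to 541 in the other libraries. In oligodendrocytes it was 37.0 in that library and 559 to 1120 in the others, and that library was lowest in every type. The part of sex in the differences of the set was not tested. Choroid plexus cells numbered 2 in the smallest library and were not tested, which left 13 types.

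Promoter windows from RefSeq (GRCm38.p6, 250 bases before to 50 after each transcript start) were found for 27 of the 31 genes and were searched on both strands for the receptor's palindrome. The full form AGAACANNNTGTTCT occurred in 3 of 32851 windows (0.00913%), of which 1 belonged to Sgk1. The relaxed form GNACANNNTGTNC, which contains the full one, occurred in 0.475% of all windows and in those of Fam107a, Map3k6, Mt1, Sgk1 and Txnip. A single arm, AGAACA, which the full form contains, lay in 19.0% of all windows and in those of Bcl6, Fam107a, Sgk1, Sult1a1 and Tsc22d3. The relaxed sites of 4 of these genes are shown because they let the letters be set beside the levels given further on, with the site in capitals and 20 bases on either side in lower case. That of Txnip, GCACACCGTGTCC, starting 172 bases before the transcript start, overlaps an annotated exon and is given without its flanks.
Sgk1, chr10:21993682-21993734, plus strand, site starting 188 bases before the transcript start: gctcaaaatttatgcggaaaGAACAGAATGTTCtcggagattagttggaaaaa
Fam107a, chr14:8309865-8309917, minus strand, site starting 118 bases before the transcript start: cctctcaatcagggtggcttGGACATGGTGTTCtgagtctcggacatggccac
Mt1, chr8:94178975-94179027, plus strand, site starting 94 bases before the transcript start: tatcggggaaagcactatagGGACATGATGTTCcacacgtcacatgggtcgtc
Map3k6, chr4:133240617-133240669, plus strand, site starting 181 bases before the transcript start: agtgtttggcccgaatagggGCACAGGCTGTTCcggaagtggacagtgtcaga
The Sgk1 site lay within the full palindrome, and the sites of the other 4 genes did not. No window of Fkbp5 held any of these forms, and Zbtb16, Cebpd, Angptl4 and Rasd1 had no window. A match in a window is a description of letters and not a measured binding site.

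Across the 13 tested types, the 31 genes gave 192 pairs of gene and type with at least 50 UMIs. Of these pairs 12 passed the test, all lower in AgRP-Gq;POMC-Gi. Over all genes, 124 of 90099 pairs passed in either direction (0.138%). The test was edgeR's quasi-likelihood test within each type, with Benjamini-Hochberg adjustment over all genes of that type and a threshold of 0.05. The 12 pairs came from 8 genes: Fkbp5 in astrocytes, oligodendrocytes and OPC, Zbtb16 in astrocytes, OPC and mural cells, Tsc22d3 and Sult1a1 in astrocytes, Nfkbia, Fam107a and Cdkn1a in oligodendrocytes, and Mertk in OPC. The other 23 genes passed in no type. In all, 163 of the 192 fitted fold changes were below 0, where 46.6% to 51.8% of all genes were, depending on the type. A gene expressed mainly in controls can reach 50 UMIs through the control libraries alone, and the contrast helped to choose the genes, so nothing is read from these counts.

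By type, 4 of 28 tested genes passed in astrocytes, where 0.235% of all 13208 genes passed as lower, and 4 of 27 passed in oligodendrocytes, against 0.173% of 14468 genes. OPC had 3 of 14, which were 3 of the 4 genes that passed there at all (0.0474% of 8438 genes), and mural cells had 1 of 14 against 0.0746%. Neurons had 0 of 30, where 0% of all genes passed as lower and 1 gene as higher, with 8 of the 30 and 5.66% of all genes under an unadjusted p of 0.05. In Tmem119.Immune, F13a1.Immune, Ms4a4b.Immune, endothelial, fibroblast, ependymal, tanycyte-like and Oligodendrocytes/OPC nuclei no gene of the set passed, where 0% of all did in either direction. Under an unadjusted p of 0.05 were 10 of 20 in endothelial cells, where 6.28% of all genes were. The counts were 6 of 17 in Tmem119.Immune nuclei (5.77%), 6 of 21 in fibroblasts (2.91%) and 2 of 3 in F13a1.Immune nuclei (4.82%). Ependymal cells had 1 of 6 (3.96%) and tanycyte-like cells 1 of 7 (6.08%). Oligodendrocytes/OPC had 0 of 4 (0.723%) and Ms4a4b.Immune nuclei 0 of 1 (8.11%). The count filter and the choice of genes limit these shares too. DESeq2 on the same sums is given with the other settings at the end.

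The share of the set with both AgRP-Gq;POMC-Gi libraries below both control libraries was 23 of 30 in neurons (26.0% of all tested genes), 17 of 28 in astrocytes (21.9%), 20 of 27 in oligodendrocytes (22.1%) and 10 of 14 in OPC (20.5%). It was 9 of 17 in Tmem119.Immune nuclei (18.3%), 11 of 20 in endothelial cells (17.7%), 10 of 14 in mural cells (20.2%) and 12 of 21 in fibroblasts (16.8%). Few of the set were tested in the rest: 2 of 3 in F13a1.Immune nuclei (23.5%), 1 of 4 in Oligodendrocytes/OPC (10.7%), 1 of 6 in ependymal cells (17.1%), 2 of 7 in tanycyte-like cells (19.3%) and 0 of 1 in Ms4a4b.Immune nuclei (15.1%). The median log2 fold change of the tested genes was -0.40 in neurons, -0.45 in astrocytes, -0.60 in oligodendrocytes and -0.73 in OPC. It was -0.03 in ependymal cells, -0.15 in tanycyte-like cells and 0.94 for the 1 gene tested in Ms4a4b.Immune nuclei, and between -1.40 and -0.40 in the other types. The median over all genes was within 0.04 of 0 in every type. With the UMIs of the AgRP-Gq;POMC-Gi libraries in both groups, only 7 of the 14 mural genes would have reached the count for testing. The same held for 13 of 17 in Tmem119.Immune nuclei, 17 of 20 in endothelial cells, 18 of 21 in fibroblasts and 12 of 14 in OPC. The others were tested only because they were high in controls, so nothing is read from these shares and medians.

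**Figure D1:**
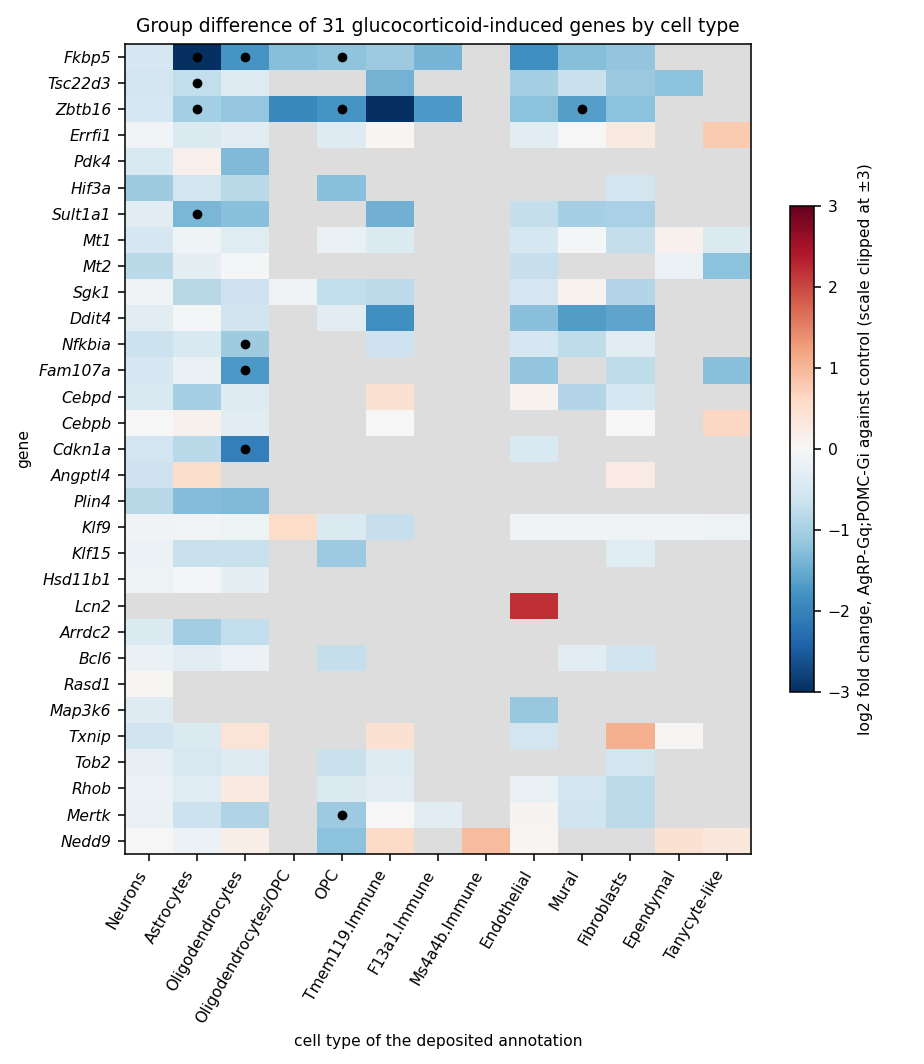
Fitted log2 fold change of AgRP-Gq;POMC-Gi against control (colour, clipped at 3 in either direction) for the 31 genes (rows) in the 13 tested cell types (columns), with grey for pairs under 50 UMIs and a black dot where the adjusted p was under 0.05. Fkbp5 and Zbtb16 are blue in every type where they were tested, and Klf9 runs only from -0.68 to 0.55. The Fkbp5 groups overlapped in Oligodendrocytes/OPC, where the sign of its fold change depended on which library was left out. Lcn2 in endothelial cells, the darkest red, was tested only because it was high in AgRP-Gq;POMC-Gi.

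The feedback regulators held the largest fall that passed. Fkbp5 (chr17:28399094-28517527, GRCm38 as are all positions), a co-chaperone that lowers the affinity of the glucocorticoid receptor for its ligand, was 275 and 178 CPM in control astrocytes and 24.5 and 28.9 in AgRP-Gq;POMC-Gi astrocytes, from 1269, 710, 82 and 114 UMIs. Both AgRP-Gq;POMC-Gi libraries thus lay far below both controls, and astrocyte Fkbp5 fell by 3.04 ± 0.20 (SE) on the log2 scale, with a control mean of 226 ± 68.4 (SD, n = 2) against 26.7 ± 3.13 (n = 2). The fall was 2.68 to 3.32 over the other 10 settings, and the call was kept in all 10. Oligodendrocyte markers in the astrocyte nuclei summed to 538 and 594 CPM in controls and 343 and 430 in AgRP-Gq;POMC-Gi libraries, and in OPC to 433 and 541 against 384 and 337, and their part in the differences of the set in these types was not tested. In oligodendrocytes, Fkbp5 was 248 and 178 CPM in controls and 47.9 and 72.8 in AgRP-Gq;POMC-Gi libraries, and it fell by 1.78 ± 0.18 on the log2 scale. In OPC it was 174 and 174 against 79.9 and 66.0, and it fell by 1.21 ± 0.19. That OPC call was lost when either control library was left out, with DESeq2 and with the replicate number as a block, while the oligodendrocyte call was lost when only genes seen in 5% of nuclei were tested, a setting in which no oligodendrocyte gene passed.

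The level of Fkbp5 itself varied widely with cell type. It was highest in F13a1.Immune nuclei (border macrophages), at 2281 and 2061 CPM in controls and 1259 and 297 in AgRP-Gq;POMC-Gi libraries, from 260 UMIs in all. Tmem119.Immune nuclei (microglia) came next with 1794, 1596, 1149 and 420 in the same order, and fibroblasts had 1296, 1404, 643 and 513. The groups did not overlap in any of these types, and the log2 fold changes were -1.40 ± 0.53, -1.08 ± 0.33 and -1.19 ± 0.32, none of which passed. The first 2 of these values rested largely on replicate 2 of AgRP-Gq;POMC-Gi, whose level was well under that of replicate 1. Without replicate 2 the log2 fold change was -0.70 in F13a1.Immune nuclei and -0.51 in microglia, and without replicate 1 it was -2.62 and -2.04. Endothelial cells had 224 and 447 in controls against 122 and 75.8, with a log2 fold change of -1.85 ± 0.37 that did not pass. It was -2.25 without control replicate 1 and -1.25 without control replicate 2. Oligodendrocytes/OPC nuclei had 144 and 1073 in controls against 410 and 91.0, so the groups overlapped there. The log2 fold change of -1.29 ± 1.21 did not pass, and it was 0.95 without control replicate 2. In neurons, where control Fkbp5 was lowest of the 13 types, it was 43.3 and 36.8 in controls against 27.4 and 27.0, a log2 fold change of -0.50 ± 0.10 that did not pass. Oligodendrocyte markers within the neuronal nuclei summed to 251 and 212 CPM in controls and 126 and 158 in AgRP-Gq;POMC-Gi libraries, and their part in the neuronal difference was not tested.

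**Figure D2:**
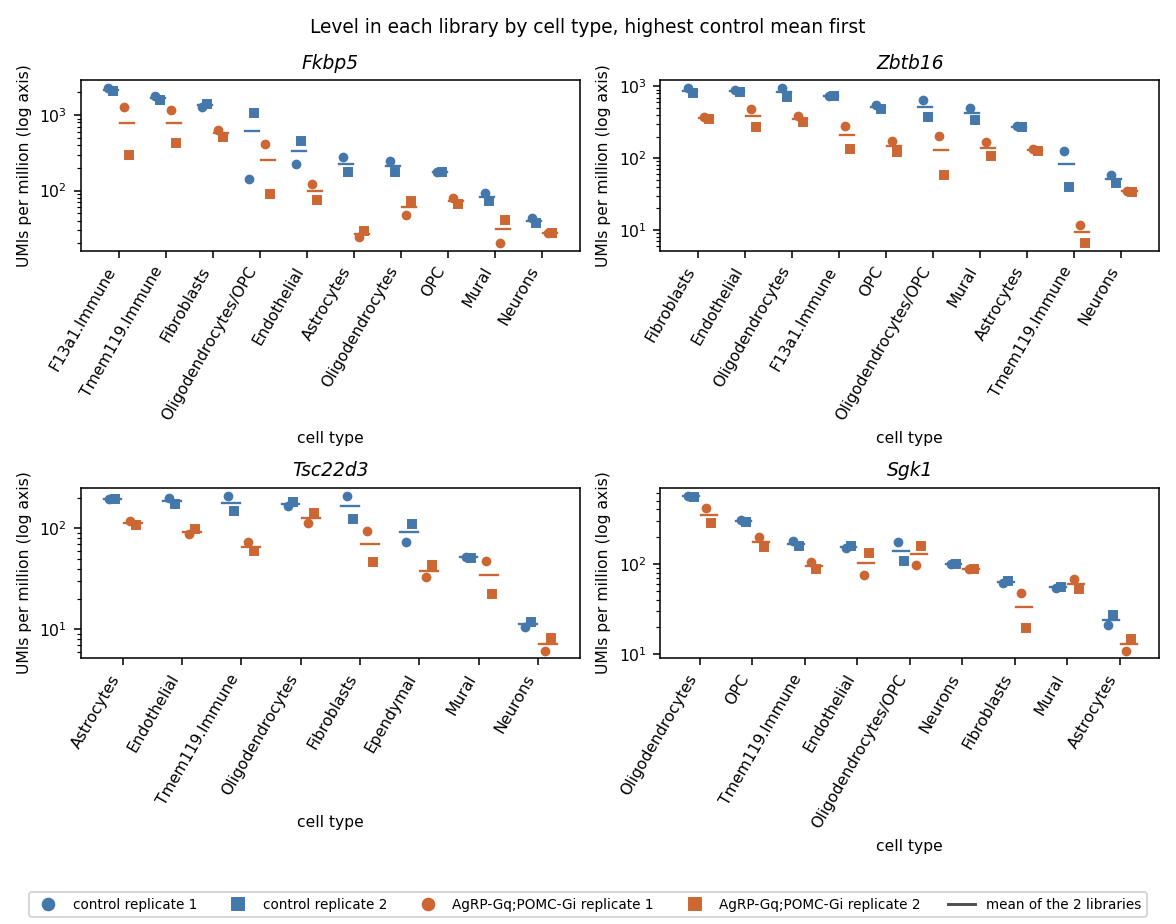
CPM (log axis) of Fkbp5, Zbtb16, Tsc22d3 and Sgk1 in each library by cell type, for types with at least 50 UMIs of the gene and ordered by control mean. Points are single libraries (circles replicate 1, squares replicate 2, blue control, orange AgRP-Gq;POMC-Gi) and bars are means of 2 libraries. The groups of Fkbp5 in astrocytes lie far apart. Zbtb16 in Tmem119.Immune nuclei reached 50 UMIs only through the control libraries.

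Seen per nucleus, the picture for Fkbp5 was the same. At least 1 Fkbp5 UMI was found in 49.2% and 33.8% of control astrocytes and in 6.62% and 7.57% of AgRP-Gq;POMC-Gi astrocytes. With every nucleus thinned to 800 UMIs, the shares were 17.3% and 9.87% against 1.82% and 2.44%. Neurons, the type with the least Fkbp5, gave thinned shares of 3.36% and 2.74% in controls and 2.30% and 2.42% in AgRP-Gq;POMC-Gi libraries. In AgRP-Gq;POMC-Gi libraries the thinned share in astrocytes was thus close to that in neurons, and the part of free RNA in either was not tested. Median depth was 4008 and 3395 UMIs in control astrocytes and 3011 and 3202 in AgRP-Gq;POMC-Gi astrocytes. In neurons it was 9624 and 8728 against 8252 and 8514, so the controls were deeper in both types. In microglia the thinned share was 69.7% and 66.5% in controls and 59.1% and 29.2% in AgRP-Gq;POMC-Gi libraries.

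Tsc22d3 (chrX:140539528-140600659), which encodes the leucine zipper protein GILZ and dampens inflammatory signalling, was 197 and 198 CPM in control astrocytes and 119 and 108 in AgRP-Gq;POMC-Gi astrocytes. It fell by 0.75 ± 0.13 on the log2 scale, and the call was kept in all 10 other settings. Oligodendrocytes had 166 and 182 against 114 and 142 (log2 change -0.39 ± 0.11), and neurons 10.5 and 11.9 against 6.15 and 8.28 (-0.58 ± 0.16), neither of which passed. The groups did not overlap in any of the 8 types in which Tsc22d3 was tested, and all of its 8 fold changes were below 0. The largest was in Tmem119.Immune nuclei, with 209 and 150 in controls and 73.1 and 59.1 in AgRP-Gq;POMC-Gi libraries (-1.43 ± 0.26, not passed). In its highest type, F13a1.Immune, it had 41 UMIs and was not tested.

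Nfkbia (chr12:55489410-55492647), the inhibitor that holds NF-kappaB in the cytoplasm, was 67.0 and 73.9 CPM in control oligodendrocytes and 34.2 and 30.3 in AgRP-Gq;POMC-Gi oligodendrocytes. It fell by 1.06 ± 0.14 on the log2 scale, a call lost only when genes seen in under 5% of nuclei were left out. Its level was highest in endothelial cells, at 488 and 426 in controls against 309 and 335, a log2 fold change of -0.51 ± 0.21 that did not pass.

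Among the transcription factors, Zbtb16 passed in 3 of the 10 types in which it was tested. Zbtb16 (chr9:48654297-48836222), a zinc finger repressor also called PLZF, was 278 and 270 CPM in control astrocytes and 133 and 126 in AgRP-Gq;POMC-Gi astrocytes, and fell by 1.03 ± 0.13 on the log2 scale. OPC had 545 and 484 against 171 and 122, a fall of 1.77 ± 0.18, and both calls were kept in all 10 other settings. Mural cells had 501 and 341 against 169 and 108, from 414 UMIs in controls and 54 in AgRP-Gq;POMC-Gi libraries, and fell by 1.64 ± 0.26. The mural call was lost without AgRP-Gq;POMC-Gi replicate 2, where the log2 fold change was still below 0.

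Oligodendrocytes held most of the Zbtb16 molecules, with 14155, 8638, 3712 and 2935 UMIs in the order control 1, control 2, AgRP-Gq;POMC-Gi 1 and 2, or 939, 724, 391 and 316 CPM. The log2 fold change of -1.16 ± 0.20 did not pass, although the groups did not overlap. Endothelial cells had 897 and 847 in controls against 489 and 274 (-1.23 ± 0.27), and fibroblasts 951 and 798 against 379 and 352 (-1.23 ± 0.28). Neurons had 58.6 and 45.1 against 35.0 and 33.5 (-0.54 ± 0.13). Oligodendrocyte markers in neuronal nuclei, given above with Fkbp5, were also lower in AgRP-Gq;POMC-Gi. Their part in the neuronal Zbtb16 values, here and further on, was not tested. In microglia, where Zbtb16 was low, it was 127 and 40.0 in controls and 11.8 and 6.57 in AgRP-Gq;POMC-Gi libraries, from 87 and 8 UMIs, and the log2 fold change of -3.14 ± 0.63 was the lowest of the set without passing. This pair reached 50 UMIs only through the control libraries, in which it was high, so nothing is read from its place. The groups were apart in all 10 types tested for Zbtb16, and all 10 fold changes were below 0. These counts include the microglial pair. They also include F13a1.Immune nuclei, with 74 control and 13 AgRP-Gq;POMC-Gi UMIs, which likewise reached 50 UMIs only through the controls. All types come from the same libraries, so nothing is read from the number of types. The same holds for the numbers of types given for the other genes.

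Hif3a (chr7:17031507-17062427), a hypoxia-inducible factor that lacks the strong activation domain of its relatives, was highest in astrocytes, at 278 and 241 CPM in controls and 165 and 177 in AgRP-Gq;POMC-Gi libraries (log2 change -0.55 ± 0.13). Oligodendrocytes had 77.1 and 63.2 against 32.0 and 45.4 (-0.81 ± 0.14), and neurons 1.94 and 1.24 against 0.787 and 0.652 (-1.07 ± 0.33). None of these passed, although the groups did not overlap in the 3 types.

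Neither Krüppel-like factor passed in any type. Klf9 (chr19:23141226-23168134), a classical early target of the receptor, was 305 and 285 CPM in control astrocytes and 306 and 227 in AgRP-Gq;POMC-Gi astrocytes (-0.08 ± 0.18), with overlapping groups. In oligodendrocytes it was 239 and 248 against 244 and 167 (-0.16 ± 0.20), and in neurons 42.7 and 39.6 against 37.0 and 35.9 (-0.11 ± 0.09). The low oligodendrocyte value was that of AgRP-Gq;POMC-Gi replicate 2, and 10 of the 11 fold changes of Klf9 were below 0, with groups apart in 2 types. Klf15, an inducer of amino acid catabolism, was tested in 5 types with all 5 fold changes below 0, and in fibroblasts, its highest type, it was 61.2 and 27.7 in controls against 27.1 and 29.3 (-0.36 ± 0.49).

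Cebpd, a leucine zipper activator of the acute-phase response, had its highest level in endothelial cells, where it was 210 and 95.4 CPM in controls and 157 and 169 in AgRP-Gq;POMC-Gi libraries, with overlapping groups (0.11 ± 0.34). Over its 7 tested types 5 fold changes of Cebpd were below 0, with groups apart in those 5 and a lowest value of -0.99. Cebpb, its close relative, was tested in 6 types with log2 fold changes from -0.31 to 0.62, and Bcl6, a repressor of inflammatory genes, in 6 types with values from -0.73 to -0.18. Both had fewer than 50 UMIs in their highest type and passed nowhere.

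Of the kinases and signalling genes, Sgk1 (chr10:21882184-21999903), a serine kinase that controls ion channels and transporters, was highest in oligodendrocytes. There it was 565 and 553 CPM in controls and 411 and 279 in AgRP-Gq;POMC-Gi libraries, a log2 fold change of -0.62 ± 0.22 over 21618 UMIs that did not pass. Both AgRP-Gq;POMC-Gi libraries were lower, and replicate 2 was the lower of them. In astrocytes, with far less Sgk1, it was 21.0 and 27.3 against 11.1 and 15.0 (-0.83 ± 0.21). In neurons the libraries were close, at 99.7 and 99.1 in controls against 88.2 and 88.8 (-0.10 ± 0.07), over 11669 UMIs.

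Errfi1 (chr4:150853919-150868892), an inhibitor of the epidermal growth factor receptor, did not pass in any of 9 types, and 4 of its 9 fold changes were above 0. Fibroblasts, its highest type, had 523 and 505 CPM in controls and 815 and 383 in AgRP-Gq;POMC-Gi libraries (0.27 ± 0.41), so that the controls lay between the other libraries. In oligodendrocytes it was 286 and 272 against 258 and 157 (-0.34 ± 0.24), in astrocytes 109 and 105 against 92.3 and 60.4 (-0.43 ± 0.19), and in neurons 21.0 and 21.4 against 19.1 and 19.2 (-0.09 ± 0.09).

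Cdkn1a (chr17:29090976-29100727), an inhibitor of cyclin-dependent kinases, was 27.1 and 21.8 CPM in control oligodendrocytes and 5.58 and 5.82 in AgRP-Gq;POMC-Gi oligodendrocytes, from 669 UMIs in controls and 107 in the other libraries. It fell by 2.05 ± 0.18 on the log2 scale, the largest fall of the set in that type. In endothelial cells, its highest type, it was 221 and 133 against 122 and 134, with overlapping groups (-0.45 ± 0.29). Fam107a (chr14:8296274-8318023), a stress-induced protein that binds actin, was 19.2 and 13.8 in control oligodendrocytes and 4.32 and 5.28 in AgRP-Gq;POMC-Gi oligodendrocytes, and fell by 1.73 ± 0.22. Both calls were kept in all 9 other settings in which the genes were tested. In astrocytes, where Fam107a was several times more abundant, it was 104 and 110 against 110 and 68.5 (-0.21 ± 0.20), with overlapping groups, and in tanycyte-like cells, its highest type, 246 and 99.9 against 92.3 and 52.1 (-1.25 ± 0.54). Astrocyte markers in the oligodendrocyte nuclei summed to 77.4 and 76.8 CPM in controls and 51.8 and 76.5 in AgRP-Gq;POMC-Gi libraries, and their part in the Fam107a difference was not tested.

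Mertk (chr2:128698956-128802894), a receptor kinase that takes up dying cells and synapses, was 604 and 563 CPM in control OPC and 282 and 248 in AgRP-Gq;POMC-Gi OPC. It fell by 1.09 ± 0.15 on the log2 scale, and the call was lost without control replicate 1. In microglia, its highest type, it was 2107 and 2085 in controls and 2227 and 1857 in AgRP-Gq;POMC-Gi libraries (-0.02 ± 0.16), over 3985 UMIs and with overlapping groups. Astrocytes had 1035 and 907 against 663 and 533 (-0.63 ± 0.19), which did not pass. The difference in OPC thus stood beside almost equal levels in microglia, and the difference between these types was not tested.

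The rest of the signalling genes passed nowhere. Ddit4, an inhibitor of the mTOR pathway, was highest in endothelial cells, at 134 and 144 CPM in controls and 69.9 and 52.5 in AgRP-Gq;POMC-Gi libraries (-1.24 ± 0.31), and all 8 of its fold changes were below 0. Map3k6, a stress kinase, was 120 and 74.4 against 34.9 and 49.6 in endothelial cells (-1.13 ± 0.38). Rhob, a small GTPase of the cytoskeleton and endosomes, was 180 and 93.0 against 75.7 and 143 there (-0.23 ± 0.36). Ddit4 and Map3k6 did not overlap between groups in endothelial cells, whereas Rhob did. Most of the 99 Map3k6 UMIs there were in controls, so this pair reached 50 UMIs only through them and nothing is read from it.

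Tob2, an antiproliferative protein, was 73.2 and 72.2 CPM in control astrocytes and 60.9 and 39.1 in AgRP-Gq;POMC-Gi astrocytes (-0.49 ± 0.20). Nedd9, a scaffold of focal adhesions, was 548 and 627 in control Ms4a4b.Immune nuclei (lymphoid cells) and 2183 and 517 in AgRP-Gq;POMC-Gi ones (0.94 ± 0.78), from 90 UMIs in 11 to 21 nuclei per library, and 6 of its 9 fold changes were above 0. Rasd1, a small GTPase induced by dexamethasone, was tested in neurons alone (0.04 ± 0.35).

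**Figure D3:**
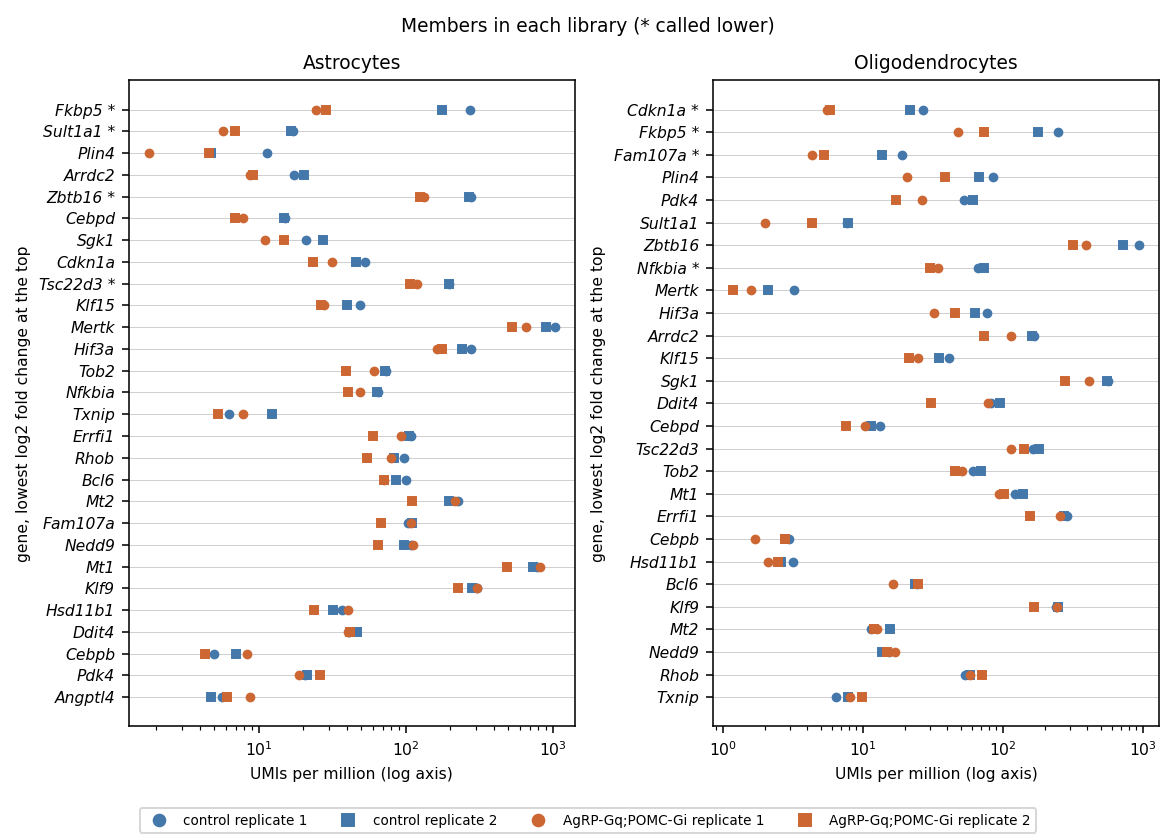
CPM (log axis) of the tested genes in astrocytes (28 genes) and oligodendrocytes (27 genes), with 1 point per library (circles replicate 1, squares replicate 2, blue control, orange AgRP-Gq;POMC-Gi) and an asterisk on genes that passed. Genes are ordered by log2 fold change, with Fkbp5 at the top in astrocytes and Cdkn1a at the top in oligodendrocytes, and the groups overlap for most genes in the lower rows.

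Of the metabolic genes, 1 passed, in astrocytes. Pdk4 (chr6:5483351-5496309), the kinase that turns off pyruvate dehydrogenase, was 53.1 and 61.7 CPM in control oligodendrocytes and 26.3 and 17.1 in AgRP-Gq;POMC-Gi oligodendrocytes, a log2 fold change of -1.32 ± 0.22 that did not pass. In astrocytes it was 20.6 and 21.3 against 18.8 and 26.1 (0.15 ± 0.18), with overlapping groups, and in neurons 1.60 and 1.46 against 1.07 and 1.05 (-0.47 ± 0.26). Plin4, a lipid droplet coat protein, was 85.3 and 67.3 in control oligodendrocytes and 20.5 and 38.5 in AgRP-Gq;POMC-Gi oligodendrocytes (-1.34 ± 0.21, not passed).

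Sult1a1 (chr7:126672865-126676432), a phenol sulfotransferase, was 17.1 and 16.5 CPM in control astrocytes and 5.67 and 6.85 in AgRP-Gq;POMC-Gi astrocytes, from 145 and 46 UMIs. It fell by 1.37 ± 0.25 on the log2 scale, and 6 of 8 other settings kept the call, which was lost when either control replicate 1 or AgRP-Gq;POMC-Gi replicate 2 was left out. Sult1a1 was tested in 7 types, in all of which the groups were apart and the fold change was below 0.

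Arrdc2, an arrestin-like adaptor, was 166 and 162 CPM in control oligodendrocytes and 114 and 73.2 in AgRP-Gq;POMC-Gi oligodendrocytes (-0.73 ± 0.22). Angptl4, an inhibitor of lipoprotein lipase, was 50.1 and 25.8 in control fibroblasts against 27.1 and 48.8 (0.25 ± 0.48). Hsd11b1, the enzyme that regenerates active glucocorticoid, was tested in 3 types with log2 fold changes from -0.29 to -0.05. For Txnip, an inhibitor of thioredoxin, 4 of 7 fold changes were above 0, over a range from -0.61 to 1.07, with the groups apart in that direction in 3 types, and none passed.

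The metal-binding genes of astrocytes showed little difference. Mt1 (chr8:94179082-94180327), a metallothionein that binds zinc and copper, was 779 and 736 CPM in control astrocytes and 824 and 488 in AgRP-Gq;POMC-Gi astrocytes (-0.13 ± 0.24), and its neighbour Mt2 (chr8:94172664-94173568) was 229 and 197 against 217 and 110 (-0.30 ± 0.26). Replicate 2 of AgRP-Gq;POMC-Gi was the low library for both, while replicate 1 lay at the control level. In oligodendrocytes Mt1 was 123 and 139 against 93.9 and 102 (-0.36 ± 0.11) and Mt2 11.5 and 15.6 against 12.6 and 12.1 (-0.07 ± 0.19). In neurons, where astrocyte markers summed to 79.6 and 54.5 in controls and 43.1 and 58.4 in AgRP-Gq;POMC-Gi libraries, Mt1 was 36.7 and 38.5 against 23.9 and 27.4 (-0.49 ± 0.09) and Mt2 6.03 and 6.96 against 3.18 and 3.94 (-0.81 ± 0.17). The part of astrocyte RNA in the neuronal values was not tested.

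Lcn2, a siderophore-binding protein made by inflamed endothelium, had the highest log2 fold change of the set. It reached 50 UMIs in endothelial cells alone, with 27.3 and 18.6 CPM in controls and 75.7 and 128 in AgRP-Gq;POMC-Gi libraries, from 18 and 57 UMIs. The groups did not overlap, and the log2 fold change of 2.20 ± 0.41 did not pass. With 18 control UMIs the pair was tested only because it was high in AgRP-Gq;POMC-Gi, so nothing is read from its rank. Heat-shock genes in endothelial cells summed to 76.3 and 69.8 CPM in controls and 46.6 and 315 in AgRP-Gq;POMC-Gi libraries, so the library with the most Lcn2 also had the most of these, and their part in the Lcn2 difference was not tested.

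The annotated astrocyte and oligodendrocyte clusters with enough UMIs of the gene all had lower Fkbp5 and Zbtb16 in AgRP-Gq;POMC-Gi. Fkbp5 was lower in both AgRP-Gq;POMC-Gi libraries than in both controls in all 8 astrocyte clusters and all 13 oligodendrocyte clusters that had at least 50 of its UMIs and 5 nuclei in every library. The pooled ratio of control to AgRP-Gq;POMC-Gi ran from 5.75 to 10.1 in astrocyte clusters and from 2.23 to 6.99 in oligodendrocyte clusters, so these ranges overlapped. Zbtb16 did the same in 11 of 11 astrocyte clusters, at ratios of 1.80 to 4.13, and in 13 of 13 oligodendrocyte clusters, at 2.00 to 4.14. For Pdk4 the groups were apart in 9 of 9 oligodendrocyte clusters, while in the single astrocyte cluster with enough UMIs the ratio was 0.857. Clusters of a type come from the same 2 libraries per group and are no replicates. A cluster can reach 50 UMIs through the control libraries, where these genes were high. No share over all genes was computed per cluster. Nothing is therefore read from the counts of clusters, here or for the neuronal clusters below.

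Among neurons, pooled Fkbp5 was lower in AgRP-Gq;POMC-Gi in 20 of 23 clusters, with both libraries lower in 11, and Zbtb16 in 27 of 31, with both lower in 18. The 3 clusters given here were picked for their high Fkbp5 level in controls after the values were seen. The serotonergic cluster (leading genes Tph2 and Slc6a4) had 339 and 252 CPM in controls and 92.3 and 45.7 in AgRP-Gq;POMC-Gi libraries, from 85, 14, 9 and 1 UMIs. The cluster led by Prph and Slc5a7, genes of cholinergic motor neurons, had 172 and 160 against 67.0 and 53.9, and the Mecom/Oprk1 cluster had 341 and 149 against 0 and 53.0. The groups did not overlap in any of the 3. These clusters held between 5 and 32 nuclei per library, so their values are coarse.

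**Figure D4:**
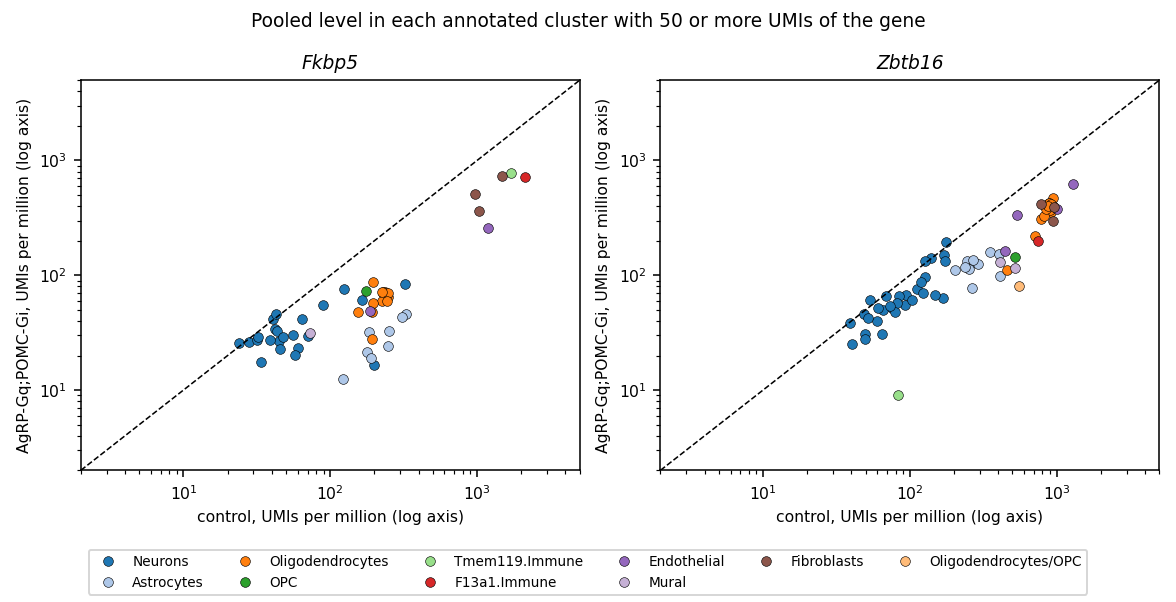
Pooled CPM of Fkbp5 and Zbtb16 in AgRP-Gq;POMC-Gi (vertical, log axis) against control (horizontal, log axis), with 1 point for each annotated cluster that had at least 50 UMIs of the gene, coloured by cell type, and a dashed line of equality. All glial and vascular clusters lie below the line, and neuronal clusters lie near it or below, with 20 of 23 below it for Fkbp5.

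The group effect was compared between each type and oligodendrocytes in 1 model, with the library as a block. For Fkbp5 it was larger in astrocytes than in oligodendrocytes by 1.25 ± 0.15 on the log2 scale (a difference of -1.25), and smaller in neurons, with a difference of 1.27 ± 0.16. Both passed at the adjusted threshold, where 0.154% of 12341 genes passed for astrocytes and 0.296% of 14183 for neurons. They were the only 2 of 158 pairs of gene and type that passed, and the neuronal one was lost without control replicate 1. The differences for Zbtb16 were 0.15 ± 0.14 in astrocytes, 0.65 ± 0.12 in neurons and -0.63 ± 0.17 in OPC, none of which passed.

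A list of 20 genes of the receptor's own machinery, which held both corticosteroid receptors, chaperones, coactivators and corepressors and the enzyme gene Hsd11b2, gave 207 tested pairs. Of these 2 passed, where 0.138% of all 90099 pairs of gene and type did, and 7 were under an unadjusted p of 0.05, against 6.26% over all genes. Nr3c1, the glucocorticoid receptor, was 134 and 125 CPM in control astrocytes and 127 and 143 in AgRP-Gq;POMC-Gi astrocytes (0.11 ± 0.12), and 143 and 147 against 138 and 165 in oligodendrocytes (0.11 ± 0.10). In neurons Nr3c1 was 42.7 and 42.9 against 37.3 and 42.2 (-0.05 ± 0.08). Nr3c2, the mineralocorticoid receptor, was 316 and 323 against 347 and 319 in neurons (0.12 ± 0.10). Groups overlapped in each of these cases but Nr3c1 in neurons, where the control libraries were slightly higher.

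Both pairs that passed were Hsd11b2, the enzyme that inactivates corticosterone. In neurons it was 0.596 and 0.401 CPM in controls and 8.21 and 8.87 in AgRP-Gq;POMC-Gi libraries, from 16, 11, 292 and 313 UMIs, and it rose by 4.15 ± 0.23 on the log2 scale. It was the 1 gene of 18972 that passed as higher in neurons (0.00527%). In oligodendrocytes it was 0.199 and 0.335 against 3.27 and 4.63, from 3, 4, 31 and 43 UMIs, and rose by 3.92 ± 0.44, where 0.0207% of genes passed as higher. With so few control UMIs the oligodendrocyte pair was tested only because it was high in AgRP-Gq;POMC-Gi, so its call adds nothing to the neuronal one. Astrocytes had 4, 3, 20 and 12 UMIs and were below the count for testing. Hsd11b2 (chr8:105518755-105523988) lies 42.7 kb from the annotated end of Agrp, the gene at which the AgRP-IRES-Cre allele of the AgRP-Gq;POMC-Gi mice is named, and the part of that allele in the difference was not tested.

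A second list of 20 glucocorticoid-responsive genes, which shared Fkbp4 with the first, gave 117 tested pairs, of which 0 passed by edgeR, 18 were under an unadjusted p of 0.05 (6.26% over all genes of the 13 types) and 79 had a fold change below 0. DESeq2 called 0 of them. Per1, a clock gene with a classical response element, was 48.5 and 52.4 CPM in control astrocytes and 60.6 and 38.3 in AgRP-Gq;POMC-Gi astrocytes (0.03 ± 0.21), and 9.05 and 7.04 against 10.5 and 10.5 in neurons (0.45 ± 0.15). Immediate early genes, a mark of recent cell activation, summed to 25.3 and 28.1 in control astrocytes and 122 and 38.0 in AgRP-Gq;POMC-Gi astrocytes, the high value being that of replicate 1. OPC had 69.2 and 71.5 against 208 and 72.2, oligodendrocytes 30.9 and 35.4 against 49.9 and 39.8, and microglia 71.0 and 103 against 224 and 153. The groups overlapped in none of these types, but replicate 1 was the higher AgRP-Gq;POMC-Gi library in each. In OPC, replicate 2 was almost at the control level. The groups did overlap in neurons, at 47.1 and 41.8 against 39.6 and 55.9, and in mural cells, at 74.7 and 56.0 against 81.1 and 63.6. Fibroblasts and ependymal cells overlapped too, and in the other tested types both AgRP-Gq;POMC-Gi libraries were higher. The part of immediate early genes in the differences of the set was not tested.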

How the data were processed

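Single-nucleus 3′ RNA-seq counts were analysed for 4 libraries, 2 per group. Per the labels, the authors aligned reads to GRCm38 with Cell Ranger 7.0.0 and processed nuclei with Seurat 4.3.0. The authors dropped nuclei below 800 UMIs, below 500 genes or above 10% mitochondrial RNA, and called doublets at an assumed rate of 0.02. The deposited values were raw UMI counts, and the deposited table gave each nucleus its quality call, cell type and cluster, which were used as given. All 44303 barcodes had the deposited totals.

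Counts were summed per library and cell type. Genes with at least 50 UMIs over the 4 libraries, in types with at least 5 nuclei in every library, were fitted with edgeR 4.0.16 (TMM factors, quasi-likelihood test, Benjamini-Hochberg adjustment within a type), and the SE was taken from the fold change and its F value. CPM used all UMIs of the type. Shares of nuclei were also taken after thinning each nucleus to 800 UMIs, which dropped none. The study's methods fitted a mixed model to nuclei within each cluster, whereas sums per library were tested here. DESeq2 1.42.0, other filters, no TMM, a replicate block and leaving out each library were alternatives. The functions were tested on simulated data.

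Depth limits rare types: F13a1.Immune and Ms4a4b.Immune nuclei had 11 to 37 nuclei per library. Free RNA can add UMIs of other cell types, and sums cannot separate it. Coordinates came from GENCODE M21 on GRCm38. The genes and lists were chosen with earlier results of these data known. Genes are given where they passed, or else in their highest type if 50 UMIs were reached there, with 10 of them also in neurons, astrocytes and oligodendrocytes.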

Additional observations from a re-analysis of the deposited data

Results flagged for a closer look

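The group effect on Fkbp5 differed between cell types in the model with the library as a block. Against oligodendrocytes, the log2 difference was -1.25 ± 0.15 in astrocytes and 1.27 ± 0.16 in neurons, both past the adjusted threshold of edgeR's quasi-likelihood test. The astrocyte value was -1.43 to -1.03 with each library left out in turn and kept its call each time. The neuronal value was 1.00 to 1.58, and its call was lost without control replicate 1, where it was 1.16. Fkbp5 was known to differ between the groups when the genes were chosen, so these values describe the libraries. Groups of 2 libraries were too small to look for outlying samples.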

How the results depend on the processing

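The labels tie libraries with the same replicate number to no animal, litter or day, though replicate 2 of both groups had more choroid plexus RNA, and with only 2 pairs the numbers were not taken as a pairing. The correlation of their deviations was 0.391 over all nuclei and -0.676 to 0.274 within types. With the replicate block, 30 of the 192 pairs of the set passed in place of 12, with 3 in neurons, 10 in astrocytes and 11 in oligodendrocytes, while the second responsive list had 6. Over all genes the block gave 607 calls in place of 124, with 81 in neurons, 243 in astrocytes, 166 in oligodendrocytes and 67 in mural cells. In the 3 types with a correlation below -0.1, the crossed replicate block, added after seeing the data, called 0 genes, as did the fit without it.

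With no filter on low counts the set had 34 calls, with 12 in astrocytes and 13 in oligodendrocytes, and the second list had 5, while all genes had 917, with 305 in astrocytes, 358 in oligodendrocytes, 36 in OPC and 59 in mural cells. Testing only genes seen in 5% of nuclei left 7 calls of the set, with 0 in oligodendrocytes, 0 of the receptor list, and 0 genes at all in neurons and in oligodendrocytes. DESeq2 gave 14 calls of the set, with 0 in neurons, 3 in astrocytes, 8 in oligodendrocytes, 2 in OPC and 1 in mural cells. It called 1 of the receptor list and 193 genes in all, with 12 in neurons, 51 in astrocytes, 115 in oligodendrocytes, 2 in OPC and 11 in mural cells. Without TMM factors 44 genes passed in oligodendrocytes and 17 in OPC, and 4 differences between types passed in place of 2 (all genes 0.234% in place of 0.159%), against 9 under filterByExpr (0.18%).

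Leaving out 1 library gave 15 to 40 calls of the set, with 0 to 8 in neurons, 3 to 15 in astrocytes, 8 to 15 in oligodendrocytes, 1 to 5 in OPC and 0 to 1 in mural cells. Over all genes it gave 252 to 3876 calls, with 1 to 2332 in neurons, 81 to 191 in astrocytes, 76 to 1338 in oligodendrocytes, 1 to 65 in OPC and 7 to 99 in mural cells. The neuronal and oligodendrocyte maxima came without AgRP-Gq;POMC-Gi replicate 2. The receptor list had 2 to 19 calls, the second list 1 to 12, and 2 to 12 differences between types passed, where 0.114% to 0.855% of all genes did. The lone library of a group is then assumed to vary like the other group. The cause of these shifts was not tested.

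Of 1825 single fold changes refitted under other settings, 1577 kept their call or, where not called, moved by less than 1 SE, 129 moved further, 108 passed where they had not, 11 lost a call and 0 called values changed sign. Fold changes for which DESeq2 gave no adjusted p, Sult1a1 in astrocytes and Hsd11b2 in oligodendrocytes among them, are left out of these counts. In controls, Fkbp5 in microglia was 42.3 times its CPM in neurons, or 22.3 times by the thinned share of nuclei, and Zbtb16 in oligodendrocytes was 16.0 times, or 9.65 times by that share. Rare types limit the tests through their depth.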

Other observations

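Atp6v0d1, a proton pump subunit whose gene lies between Hsd11b2 and Agrp on chromosome 8, was looked up after the Hsd11b2 values were seen. In neurons it was 64.6 and 66.7 CPM in controls and 92.7 and 90.3 in AgRP-Gq;POMC-Gi libraries (log2 change 0.54 ± 0.08). Astrocytes had 55.6 and 55.1 against 71.7 and 72.3 (0.43 ± 0.13), and oligodendrocytes 60.5 and 63.8 against 78.6 and 88.8 (0.49 ± 0.10). The groups did not overlap in the 3 types, and none of the 3 values passed the adjusted threshold of edgeR's test. The share of all genes apart in this direction is not given, and the 3 types come from the same libraries. Nothing is therefore read from the lack of overlap.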
